A study of Mus musculus with 43 samples.

Results

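The nuclear genes for the subunits of the 5 oxidative phosphorylation complexes were followed through the 2 experiments of the series, in PD798 mouse pancreatic tumor cells. Members were chosen by symbol: those starting with Ndufa, Ndufb, Ndufc, Ndufs, Ndufv, Uqcr, Cox4 to Cox8 or Atp5, together with Sdha to Sdhd, leaving out Ndufaf symbols (assembly factors) and pseudogene symbols. Of 13845 genes in the table of processing conditions, 77 were members, and all 77 were also among the 13817 genes of the input table. The input table held 80 members, the additional 3 being Cox4i2, Cox6a2 and Cox6b2. The 77 shared members comprised 35 genes of complex I (7 for core subunits that carry out electron transfer and 28 for accessory subunits), 4 of complex II, 8 of complex III, 13 of complex IV with Ndufa4 counted there, and 15 of complex V. The remaining 2, Atp5s and Atp5sl, fit the symbol rule but are not counted in a complex here.

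PD798 is a cultured line from a tumor of a KPCY mouse. Its alleles include Pdx1-cre, which expresses Cre in the pancreatic lineage, p53 L/+ for the tumor suppressor and Rosa YFP/YFP, the reporter for yellow fluorescent protein (YFP). It is 1 line, so every group carried the same alleles. The labels give all libraries 1 treatment text, with cells put into blood, whereas the study's methods describe the processing conditions on cultured cells, and the groups are given here as in the methods. In the processing experiment, bulk RNA was sequenced from 3 libraries in each of 4 conditions. Pre-FACS cells were banked before sorting. Mock cells stayed in staining buffer on the bench at room temperature for the same time. FACS-only cells received magnetic particles and red blood cell lysis buffer and were sorted on a BD Influx without pre-enrichment, and Pre-enriched cells passed through magnetic depletion and acoustic focusing before the same sorter. In the input series, YFP-positive cells recovered from spiked healthy mouse blood after pre-enrichment gave 11 single-cell libraries, 12 pools of 10 cells and 6 pools of 100 cells, and 2 libraries were made from bulk RNA of the line. The labels name no separate cultures, so p-values measure only the spread between these libraries, which may be technical. Values are transcripts per 1000000 (TPM), a share of the library corrected for transcript length. TPM keeps no read depth, so the depth behind each value cannot be read from these values, and in a bulk library fewer cells of a type and less RNA per cell cannot be told apart.

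Oxidative phosphorylation takes place in the inner mitochondrial membrane. Complex I (NADH dehydrogenase) and complex II (succinate dehydrogenase) pass electrons to ubiquinone, complex III (the cytochrome bc1 complex) passes them on to cytochrome c, and complex IV (cytochrome c oxidase) transfers them to oxygen. Complexes I, III and IV pump protons, and complex V (ATP synthase) uses the proton gradient to make ATP. Complex II is the only one of them that also belongs to the tricarboxylic acid (TCA) cycle, and its subunits are all encoded in the nucleus. The other complexes also contain subunits encoded by mitochondrial DNA, which were not analysed here.

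All 8 ductal epithelial markers chosen to check the line were measured, and their summed level ranged from 24772 to 28295 TPM over the 12 processing libraries, most of it from 4 keratin genes, Krt18 being the most abundant. Not all of them were high. Epcam lay between 32.1 and 38.9 TPM and Cldn7 between 2.78 and 7.65 TPM in the processing libraries, against medians of 827 and 578 TPM in bulk RNA of the input series. Muc1 lay between 854 and 987 TPM in the processing libraries and was listed at 0 in the median single cell. The mesenchymal marker Vim lay between 960 and 1085 TPM in the processing libraries and had a median of 79.2 TPM in bulk RNA of the input series, whose table was made separately. Of the blood cell markers, 2 of 8 erythroid (Alas2 and Klf1), 1 of 10 leukocyte (Ptprc) and 2 of 4 platelet genes were in the processing table. The erythroid pair summed to at most 4.18 TPM in a processing library. In the input table the erythroid pair was as high as 278 TPM in 1 single cell (number 11) and as 83.3 TPM in pool 10 of the 10-cell pools, and 3 leukocyte genes (Cd79a, S100a8 and S100a9) summed to between 45.8 and 60.9 TPM in bulk RNA and to as much as 150 TPM in 100-cell pool 5. The paper describes bulk RNA as isolated from the line, so the level of these 3 genes is not a measure of leukocytes here. Globin genes were not analysed here.

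Several libraries stood apart in the members and are described before any comparison. Each library was compared with the median of the 12 processing libraries on the log2(TPM + 1) scale. In Pre-FACS 1, the median deviation of the members was 0.33, with 68 of 77 above the median, whereas all tested genes had a median deviation of -0.02. In FACS-only 1, the members' median deviation was 0.23, with 66 of 77 above, against -0.01 over all genes. In the other 10 libraries the members' median lay between -0.08 and 0.04. The 2 libraries belong to different conditions and share the replicate number. In the input series, single cells 1 to 4 and 100-cell pools 4 to 6 stood apart in ways given below.

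The elevation in Pre-FACS 1 and FACS-only 1 was not shared equally by the complexes. Median deviations in Pre-FACS 1 were 0.35 for complex I, 0.02 for complex II, 0.39 for complex III, 0.34 for complex IV and 0.32 for complex V. In FACS-only 1 they were 0.24, -0.01, 0.22, 0.28 and 0.18 in the same order. Complex II thus stayed near its median level in both. Within complex I, accessory subunits deviated by a median of 0.37 and core subunits by 0.13 in Pre-FACS 1, and by 0.28 and 0.08 in FACS-only 1.

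These deviations went with transcript length. Members are short, with a median transcript of 861 bases against 2807 for all tested genes with a length. Complex IV transcripts were shortest (median 618 bases), none of the 4 complex II transcripts was under 1000 bases, and core complex I transcripts (median 1623 bases) were longer than accessory ones (748 bases). In Pre-FACS 1 the 30 members under 700 bases deviated by a median of 0.40 and the 31 of at least 1000 bases by 0.07. In FACS-only 1 the corresponding medians were 0.30 and 0.08. Over all tested genes, members included, the order was the same. The 444 genes under 700 bases deviated by 0.23 in Pre-FACS 1 and 0.27 in FACS-only 1, and those of at least 1000 bases by -0.03 and -0.01. Across members, the rank correlation of deviation with length was -0.71 in Pre-FACS 1, -0.60 in FACS-only 1 and between -0.28 and 0.38 in the other 10 libraries, as a description over 77 genes of 1 library, which are not independent. Over all tested genes with a length it was -0.30 in Pre-FACS 1 and -0.21 in FACS-only 1. The latter lay within the range of the other 10 libraries (-0.25 to 0.27). The definition of length was changed after this relation had been seen. With the median length of coding transcripts the members' values in Pre-FACS 1 and FACS-only 1 were -0.67 and -0.59, and with all exons of a gene together -0.45 and -0.43. The tumor marker sum was lowest in the same libraries, at 24827 TPM in Pre-FACS 1 and 24772 TPM in FACS-only 1, against at least 25834 TPM in the other 10. The part of length or of these markers in the members' deviation was not tested.

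**Figure D1:**
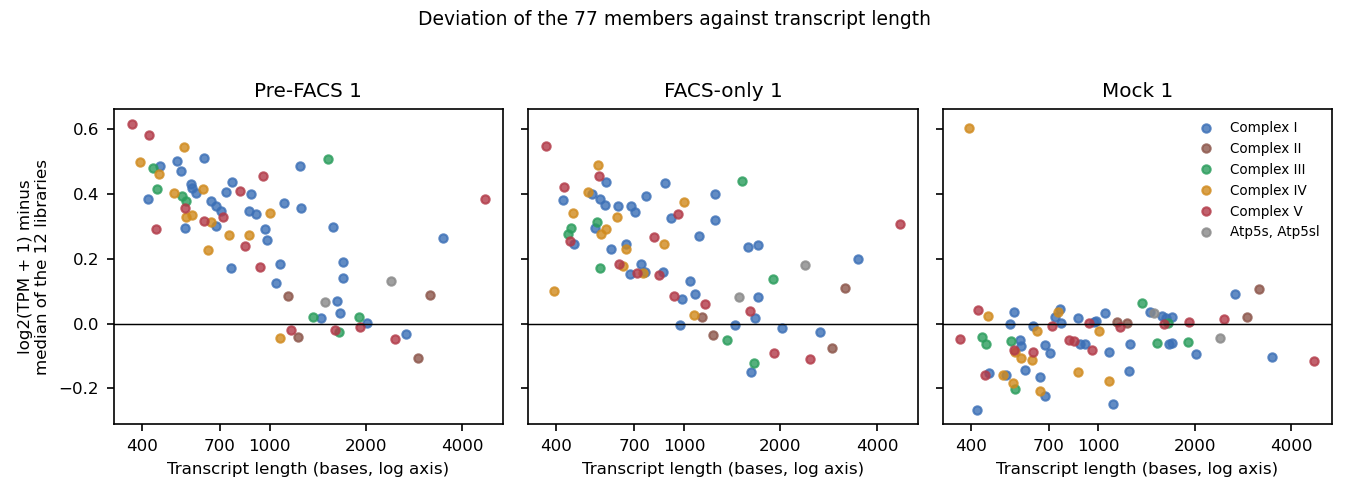
Deviation of the 77 members from the median of the 12 processing libraries (log2(TPM + 1), y axis) against transcript length in bases (x axis, log scale) in Pre-FACS 1, FACS-only 1 and, for comparison, Mock 1, with 1 point per gene colored by complex. Points of short transcripts lie above 0 in Pre-FACS 1 and FACS-only 1 (rank correlations -0.71 and -0.60), with no such slope in Mock 1.

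The members were among the more abundant mRNAs of the line. Of the 77, 61 had a mean of at least 100 TPM over the 12 processing libraries, and the median member lay at the 90.3 percentile of mean TPM among the genes of the table. Complex IV and complex V genes had the highest median levels, at 377 and 292 TPM, followed by complex II at 278 TPM, complex III at 235 TPM and complex I at 132 TPM. Levels within a complex spread widely. Within complex V, Atp5b, the catalytic beta subunit, was the highest of all members at 1880 TPM, Atp5a1, its alpha partner, had 891 TPM, and Atp5l, a membrane-sector subunit, had 48.1 TPM. In complex I the range ran from 22.4 TPM for Ndufa11 to 323 TPM for Ndufb8, both accessory subunits. Complex II was the most even, from 225 TPM for the membrane anchor Sdhc to 383 TPM for the other anchor Sdhd, with the flavoprotein Sdha at 269 TPM and the iron-sulfur subunit Sdhb at 287 TPM. Complex III ran from 157 TPM for Uqcrc2 to 383 TPM for Uqcrc1, the 2 core proteins of that complex. Many of these genes have processed pseudogenes, and how reads shared with such copies were counted is not given in the sources used here, so single levels are uncertain to that extent.

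Among isoform genes, those known to be ubiquitous were high and those known from muscle, lung or testis were low. Ndufa4 was the highest complex IV gene (673 TPM), followed by Cox4i1 (578 TPM) and Cox6a1 (516 TPM), whereas Cox7a1, known as the heart and muscle isoform, was the lowest member at 6.12 TPM against 178 TPM for its ubiquitous counterpart Cox7a2. Cox7a2l, a factor of respiratory supercomplexes, had 63.7 TPM. Among the 3 genes for the identical c-ring subunit of complex V, Atp5g3 had 582 TPM, Atp5g1 138 TPM and Atp5g2 76.4 TPM. In bulk RNA of the input series, Cox4i2 (lung) had a median of 0.755 TPM, Cox6a2 (muscle) 0.833 TPM and Cox6b2 (testis) 10.7 TPM, against 530 TPM for Cox4i1, 705 TPM for Cox6a1 and 530 TPM for Cox6b1.

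Promoters of the members were searched for the letters of 3 elements known from genes of the respiratory chain: CCGGAAG for the ETS family that includes GABP (nuclear respiratory factor 2), CGCATGCG for the core of the NRF1 site and AAGATGGC for YY1, on both strands. RefSeq promoters (250 bases before to 50 after the start, build GRCm38.p6) were matched for 64 of 77 members, giving 70 promoters. CCGGAAG was present in 22.9% of member promoters and 8.86% of all 32851 promoters of the same length. CGCATGCG was present in 12.9% and 1.87%, and AAGATGGC in 15.7% and 2.75%. At least 1 of these letter strings was in 42.9% of member promoters and 12.6% of all. AAGATGGC was found in 7 of 31 complex I members and 2 of 13 complex V members with a promoter, and in none of complexes II, III and IV. A match of letters is a description and not a bound site. The upstream windows below are given for 1 member of each complex, to show the letters in place. They run from 30 bases before the first match, within the 250 bases before the start, and the capitals mark the matched letters (CTTCCGG is CCGGAAG on the other strand). They are from GRCm38.p6, all on the minus strand and written 5′ to 3′: Ndufa8 at chr2:36049339-36049377, Sdhd at chr9:50603859-50603925, Uqcr11 at chr10:80406851-80406917, Cox6b1 at chr7:30626115-30626172 and Atp5l at chr9:44920918-44920992.
Ndufa8: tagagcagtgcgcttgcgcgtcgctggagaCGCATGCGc
Sdhd: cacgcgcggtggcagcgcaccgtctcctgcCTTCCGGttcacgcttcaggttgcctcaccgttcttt
Uqcr11: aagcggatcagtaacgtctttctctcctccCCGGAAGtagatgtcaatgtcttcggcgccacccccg
Cox6b1: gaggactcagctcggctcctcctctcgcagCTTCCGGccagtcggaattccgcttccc
Atp5l: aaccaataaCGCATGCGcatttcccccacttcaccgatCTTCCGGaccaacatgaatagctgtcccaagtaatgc

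The processing comparison asks whether banking, waiting, sorting or pre-enrichment altered the transcriptome. The summed level of the 77 members was 21614, 18346 and 17680 TPM in Pre-FACS 1 to 3 and 17826, 18837 and 17756 TPM in Mock 1 to 3. It was 20510, 17654 and 17519 TPM in FACS-only 1 to 3 and 18891, 18652 and 18470 TPM in Pre-enriched 1 to 3. The conditions overlapped, the 2 highest sums being those of the libraries that stood apart, and the members made up between 1.75% and 2.16% of the TPM of any library.

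By complex, the same 2 libraries had the highest sums in complexes I, III, IV and V but not in complex II. Complex I summed to 6166, 5017 and 4929 TPM in Pre-FACS, 4852, 5166 and 4816 TPM in Mock, 5823, 4784 and 4799 TPM in FACS-only, and 5258, 5120 and 5065 TPM in Pre-enriched. Complex II summed to 1162, 1188 and 1182 TPM in Pre-FACS, 1182, 1248 and 1139 TPM in Mock, 1160, 1134 and 1163 TPM in FACS-only, and 1149, 1123 and 1133 TPM in Pre-enriched. Pre-enriched complex II libraries all lay below the Pre-FACS ones and overlapped Mock and FACS-only. Complex IV summed to 5080, 3929 and 3714 TPM in Pre-FACS, 3791, 4061 and 3848 TPM in Mock, 4851, 3789 and 3718 TPM in FACS-only, and 4192, 4105 and 4119 TPM in Pre-enriched. Pre-enriched complex IV libraries all lay above the Mock ones and overlapped Pre-FACS and FACS-only through the libraries that stood apart. Complex IV, which carries the shortest transcripts, had a spread in Pre-FACS of 735 TPM (SD, n = 3) around a mean of 4241 TPM, against 46.8 TPM around 4139 TPM in Pre-enriched. Complex III means ranged from 1903 ± 69.5 TPM (SD, n = 3) in Mock to 2016 ± 270 TPM in Pre-FACS, and complex V means from 6162 ± 152 TPM in Mock to 6369 ± 441 TPM in Pre-FACS.

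**Figure D2:**
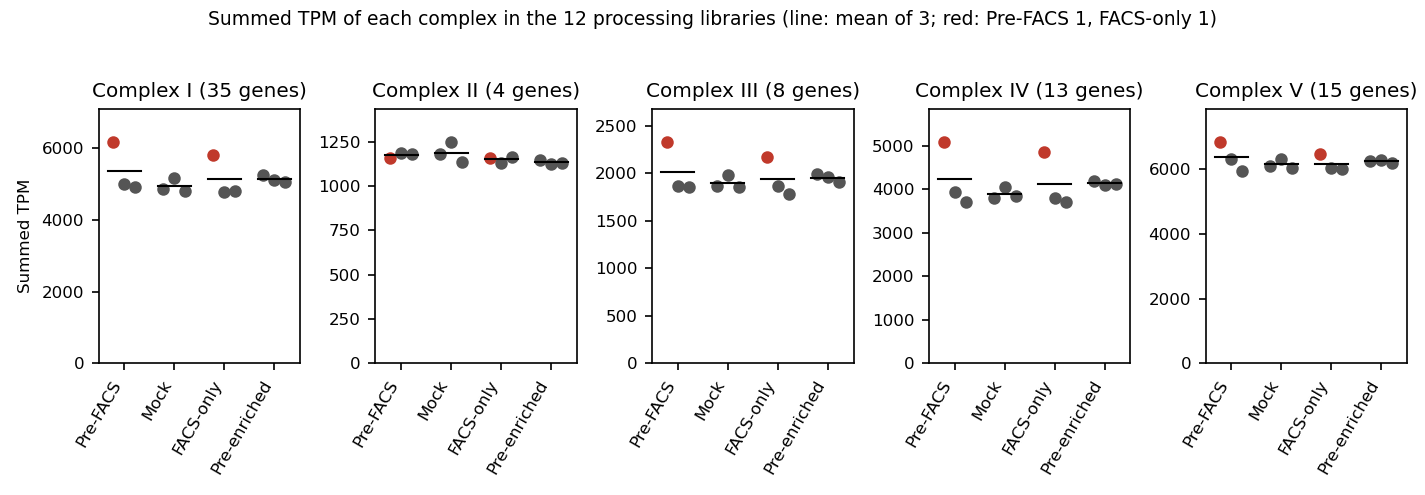
Summed TPM of each complex (y axes, each starting at 0) in the 12 processing libraries, 3 points per condition with a line at the mean, Pre-FACS 1 and FACS-only 1 in red. The red points are the highest in complexes I, III, IV and V and lie among the others in complex II.

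No member passed the test in any comparison of processing conditions. limma was fitted to log2(TPM + 1) of 12159 genes, all 77 members included, that reached 1 TPM in 3 or more libraries, with Benjamini-Hochberg adjustment over all tested genes at 0.05. In the F test over the 4 conditions, 0 of 77 members passed, where 0.107% of all genes did (13 genes). The count of members was also 0 for Mock against Pre-FACS (0.00822% of all genes), FACS-only against Pre-FACS (0.123%) and Pre-enriched against Pre-FACS (0.0493%). It was 0 for FACS-only against Mock (0%), Pre-enriched against Mock (0%) and Pre-enriched against FACS-only (0%), in which no tested gene passed. None of 21 alternative settings, 12 of them leaving out 1 library, called a member. Without adjustment, 4 members had a p below 0.05 in the F test, against 7.56% of all genes. For the pairs, members with an unadjusted p below 0.05 numbered 3, all lower, in Mock against Pre-FACS (background 4.53%), 2, both lower, in FACS-only against Pre-FACS (6.96%), and 4, of which 3 were lower, in Pre-enriched against Pre-FACS (9.18%). They numbered 1 in FACS-only against Mock (5.63%), 3 in Pre-enriched against Mock (7.77%) and 2 in Pre-enriched against FACS-only (6.75%). These counts are shares of at most 5.19% of the members, below the background in each case.

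The intervals bound the size of a change that could have gone unseen. The median standard error of a member's log2 change was 0.107. The 95% interval lay within ±0.5 for 75 of 77 members in 4 of the pairs and for 71 of 77 in Mock against Pre-FACS and in Pre-enriched against Mock, and within ±1 for all 77 in every pair. The test itself misses many changes of that size. In simulated data, with 200 of all tested genes changed, FACS-only against Pre-FACS recovered 52% at a log2 change of 0.5 and 89% at 1. A count of 0 members is thus no sign that smaller changes were absent.

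Sdhb, the iron-sulfur subunit of complex II (chr4 from 140961203 to 140979193, plus strand), had the lowest p of any member in Pre-enriched against Pre-FACS. Its levels were 308, 302 and 297 TPM in Pre-FACS, 291, 297 and 274 TPM in Mock, 294, 285 and 290 TPM in FACS-only, and 270, 276 and 257 TPM in Pre-enriched. Pre-enriched libraries were below every Pre-FACS and FACS-only library and overlapped Mock. The difference from Pre-FACS was -0.17 (SE 0.0495), limma adjusted p = 0.274.

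Ndufa10, an accessory complex I subunit (chr1 from 92439010 to 92473860, minus strand), went the other way. Its levels were 175, 175 and 162 TPM in Pre-FACS, 164, 169 and 150 TPM in Mock, 173, 175 and 174 TPM in FACS-only, and 183, 181 and 196 TPM in Pre-enriched. Every Pre-enriched library lay above all 9 libraries of the other conditions. The difference from Mock was 0.21 (SE 0.0584), limma adjusted p = 0.405.

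Ndufb8, an accessory complex I subunit (chr19 from 44548572 to 44555440, minus strand), was highest before sorting. Its levels were 390, 341 and 339 TPM in Pre-FACS, 302, 335 and 288 TPM in Mock, 351, 292 and 294 TPM in FACS-only, and 315, 317 and 312 TPM in Pre-enriched. Pre-FACS lay above Mock and Pre-enriched without overlap, and FACS-only overlapped it only through FACS-only 1. The difference of Mock from Pre-FACS was -0.21 (SE 0.0760), limma adjusted p = 0.997. The other members that the lowest p-values named were also in complex I, apart from Uqcrfs1, the Rieske iron-sulfur protein of complex III. They were Ndufs1, Ndufs8, Ndufa1, Ndufa8, Ndufa12, Ndufb4 and Ndufb9, with adjusted p-values in the pairs of at least 0.478, as for Ndufs1 in Pre-enriched against Pre-FACS (-0.16, SE 0.0656).

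Over all members, the pairs differed by small medians that turned on the 2 libraries that stood apart. The median log2 change of the members was -0.09 for Mock against Pre-FACS (14 of 77 above 0, against a median of -0.005 over all genes), -0.04 for FACS-only against Pre-FACS (15 of 77), and -0.01 for Pre-enriched against Pre-FACS (28 of 77). It was 0.02 for FACS-only against Mock (55 of 77), 0.06 for Pre-enriched against Mock (57 of 77) and 0.03 for Pre-enriched against FACS-only (51 of 77). The pairs share libraries, so these values are not independent. Without Pre-FACS 1, the medians against Pre-FACS became 0.02 for Mock, 0.06 for FACS-only and 0.07 for Pre-enriched. Without FACS-only 1, the median of FACS-only became -0.15 against Pre-FACS and -0.05 against Mock, and Pre-enriched against FACS-only became 0.11. The median of Pre-enriched against Mock uses neither library. With 1 library left out at a time it lay between 0.04 and 0.08, a range set by leaving out Pre-enriched or Mock libraries. Many other settings, such as the trend, the block, the filters or leaving out a library of another condition, cannot move this median. Their agreement therefore carries no weight. Complex II differed in sign from the rest in that pair, at -0.08, with 0 of its 4 members above 0, against 0.07, 0.06, 0.11 and 0.01 for complexes I, III, IV and V.

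**Figure D3:**
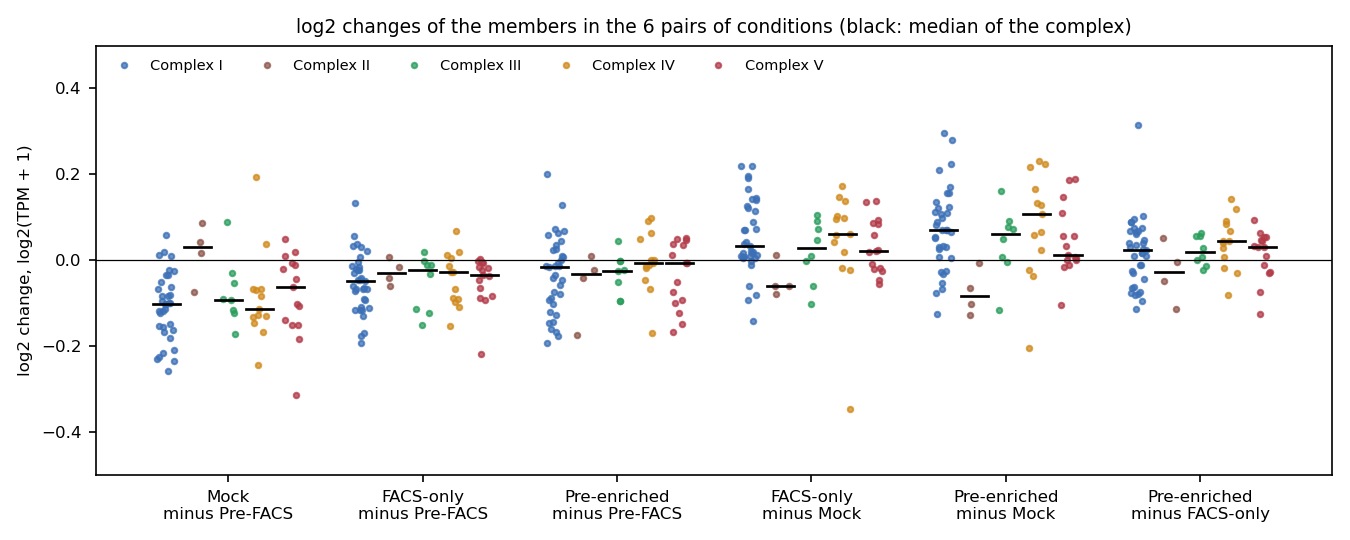
log2 changes of the members (y axis, log2(TPM + 1)) in the 6 pairs of processing conditions, 1 point per gene colored by complex with a black line at the median of the complex. All points lie between -0.35 and 0.32, and the complex II line is on the other side of 0 from the other complexes in Mock against Pre-FACS and in Pre-enriched against Mock, Pre-enriched against FACS-only and FACS-only against Mock.

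Leaving out Pre-FACS 1 and FACS-only 1 together, a setting chosen after the members' values were seen, narrowed the spread and still called no member. limma was refitted to 10 libraries and 12096 genes. In the F test, 24 members had an unadjusted p below 0.05, against 11.3% of all genes. In the pair tests, members below that p numbered 21 in Pre-enriched against Pre-FACS (19 higher, Ndufs1 and Sdhb lower, background 13.4%), 19 in Pre-enriched against Mock (16 higher, Sdhb, Sdhc and Uqcrfs1 lower, background 9.97%) and 25, all higher, in Pre-enriched against FACS-only (background 11.1%). FACS-only had 5 such members against Pre-FACS, all lower (background 7.13%), and 7 against Mock, all lower (background 6.81%). Mock against Pre-FACS had 5, of which 3 were higher (background 5.35%). Out of 77 members, the counts for FACS-only against Pre-FACS and Mock, and for Mock against Pre-FACS, were near the background. No direction of the members is read from them. Of the 25 in Pre-enriched against FACS-only, 10 were in complex I, 4 in complex III, 8 of 13 in complex IV, 3 in complex V and none in complex II. Since the libraries were left out for their members' values, these counts are a description.

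Cox6b1, a complex IV subunit on the intermembrane side, had the lowest adjusted p in that fit. Its levels were 545, 406 and 368 TPM in Pre-FACS, 377, 410 and 400 TPM in Mock, 513, 389 and 385 TPM in FACS-only, and 462, 484 and 441 TPM in Pre-enriched. The 3 Pre-enriched libraries lay above all others except Pre-FACS 1 and FACS-only 1. In the 10 libraries, Pre-enriched exceeded Pre-FACS by 0.26 (SE 0.0555), limma adjusted p = 0.0640, Mock by 0.22, adjusted p = 0.177, and FACS-only by 0.25, adjusted p = 0.108. With all 12 libraries the difference from Pre-FACS was 0.09 (SE 0.119), adjusted p = 0.874. Cox7c, a short complex IV subunit, behaved alike in value: 279, 193 and 187 TPM in Pre-FACS, 168, 190 and 190 TPM in Mock, 269, 178 and 172 TPM in FACS-only, and 209, 203 and 231 TPM in Pre-enriched. Its difference of Pre-enriched from FACS-only was 0.29 in the 10 libraries, adjusted p = 0.132, and 0.08 in all 12, adjusted p = 0.962. Pre-FACS 1 and FACS-only 1, which were left out, held the highest levels of both genes. The values from the 10 libraries are therefore a description.

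The input series asks how the profile of few cells compares with bulk RNA. The sorted libraries were made from cell lysate after spiking into blood, pre-enrichment and sorting, and the bulk libraries from isolated RNA. Cell number, contact with blood, sorting and preparation therefore cannot be told apart in any difference of sorted cells from bulk RNA. Inputs were described by their libraries, and no test between them was made. The members summed to 20517 and 20887 TPM in the 2 bulk RNA libraries. In 100-cell pools 1 to 6 they summed to 30879, 31765, 33020, 53096, 48267 and 46070 TPM. Pools of 10 cells ran from 28789 to 44123 TPM with a median of 35629 TPM, and single cells from 23568 to 47036 TPM with a median of 28256 TPM. Every library from sorted cells thus had a higher sum than either bulk RNA library. The genes of the table held only between 54.2% and 99.99% of the fixed TPM total in the 31 libraries, the lowest being single cell 7, so the members' share of the TPM in the table was also taken. It was 2.05% and 2.09% in bulk RNA, between 3.09% and 5.32% in 100-cell pools, between 2.88% and 4.44% in 10-cell pools and between 2.87% and 5.40% in single cells.

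Most members were above bulk RNA in every input while most other genes were below it. The median log2 difference of the 77 members from the mean of bulk RNA, taken from each gene's median over libraries, was 0.73 in single cells (1.66-fold), 0.93 in 10-cell pools (1.91-fold) and 1.09 in 100-cell pools (2.13-fold). The median over all 12325 genes kept was -1.86, -0.82 and -0.73 in the same order, and over the 2175 genes with 100 TPM or more in each bulk RNA library, which are nearer the members in level, -0.83, -0.23 and -0.43. Members above bulk RNA numbered 67, 71 and 69 of 77, where 13.4%, 26.0% and 27.4% of all genes and 28.4%, 43.2% and 39.5% of the genes of at least 100 TPM were above. At least a difference of 1 on the log2 scale above bulk RNA was reached by 12 members in single cells (1.18% of all genes), 30 in 10-cell pools (2.86%) and 44 in 100-cell pools (5.03%). At least as far below were 4 members in single cells (68.5% of all genes), 1 in 10-cell pools (44.2%) and 3 in 100-cell pools (41.7%). Among the genes of at least 100 TPM, 2.48%, 5.79% and 10.5% were that far above. With TPM rescaled so that the table held the fixed total in each library, the single-cell median became 1.12. The 8 tumor markers went the other way, with medians of -1.10, -0.21 and -1.12 in single cells, 10-cell and 100-cell pools, and 5, 2 and 5 of 8 at least 1 below bulk RNA. Their sum ran from 3463 to 30203 TPM in single cells, 9 of 11 being below both bulk RNA libraries (28273 and 28793 TPM), and from 17732 to 32370 TPM in 10-cell pools. The 3 mesenchymal markers differed from bulk RNA by medians of -1.02, -1.02 and -0.49 in the same order. The 2 leukocyte markers among the genes kept differed by -2.96, -3.90 and -0.04, and the erythroid pair by -0.39, 1.04 and 0.95. What part any of these markers had in the members' differences was not tested.

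The 100-cell pools fell into a low and a high trio. Median member differences from bulk RNA were 0.62, 0.70 and 0.79 in pools 1 to 3 and 1.69, 1.5 and 1.43 in pools 4 to 6. Without pools 4 to 6 the median over members was 0.70, and without pools 1 to 3 it was 1.51. The tumor marker sum differed between the same pools in the opposite direction, at 30377, 30207 and 31932 TPM in pools 1 to 3 and 7771, 10575 and 11506 TPM in pools 4 to 6, against 28273 and 28793 TPM in bulk RNA. The erythroid pair was higher in pools 4 to 6, at 2.70, 2.94 and 1.27 TPM in pools 1 to 3 against 12.8, 4.97 and 8.15 TPM. Of 5 mesenchymal markers, the 3 in the table summed to 90.4, 87.4 and 101 TPM in pools 1 to 3 and to less, 84.8, 36.3 and 38.2 TPM, in pools 4 to 6. The leukocyte markers overlapped between the trios (65.1, 47.9 and 39.3 against 41.5, 150 and 35.8 TPM). The part of these markers in the members' differences was not tested. Member medians were above 0 in all 11 single cells (0.15 to 1.42) and in all 12 10-cell pools (0.57 to 1.36).

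By complex, complex I stood highest in each input and complex II lowest in single cells. Median differences from bulk RNA in single cells were 0.88 for complex I, 0.45 for complex II, 0.84 for complex III, 0.67 for complex IV and 0.53 for complex V. In 10-cell pools they were 1.06, 0.81, 0.84, 0.84 and 0.80, and in 100-cell pools 1.24, 1.06, 1.00, 0.91 and 0.96. Within complex I, accessory subunits (0.89, 1.11 and 1.3 in the 3 inputs) exceeded core subunits (0.45, 0.69 and 0.67).

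The members below bulk RNA were few, and most had a long principal transcript. Sdha, the flavoprotein of complex II that oxidizes succinate (chr13 from 74322254 to 74350280, minus strand, transcript of 2900 bases), had 272 and 276 TPM in bulk RNA. It had 190, 169, 165, 32.8, 33.4 and 31.5 TPM in 100-cell pools 1 to 6. It ran from 41.6 to 169 TPM with a median of 114 TPM in 10-cell pools, and from 8.15 to 300 TPM with a median of 92.0 TPM in single cells. All pools were below bulk RNA, pools 4 to 6 lowest, and only single cell 4 was above it. The median differences were -1.56, -1.26 and -1.86 in single cells, 10-cell and 100-cell pools. Its partner Sdhb, with a transcript of 1142 bases, was above bulk RNA, by 0.27, 0.81 and 1.04. Sdhc and Sdhd were also above, by 0.78 and 0.62 in single cells.

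In complex V the catalytic pair was below bulk RNA and most other subunits were above it. Atp5b (chr10 from 128083273 to 128090391, plus strand, 1916 bases) had 1794 and 1805 TPM in bulk RNA and 1401, 1409, 1368, 355, 565 and 585 TPM in 100-cell pools 1 to 6. Its medians were 1489 TPM in 10-cell pools (965 to 1925 TPM) and 968 TPM in single cells (421 to 2045 TPM). The 100-cell pools were all below bulk RNA, and the other inputs reached it only at their upper end. The differences were -0.89, -0.27 and -1.01 for Atp5b and -0.99, -0.40 and -1.18 for Atp5a1, whose transcript has 2471 bases. Atp5o, the stalk subunit that confers oligomycin sensitivity, with 838 bases, was above bulk RNA by 1.26, 0.97 and 1.26. Of the 15 complex V members, 13, 13 and 12 were above bulk RNA in the 3 inputs, some by little, such as Atp5g2 at 0.14 and Atp5d at 0.23 in single cells, and Atp5d was at -0.03 in 100-cell pools.

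In complex I, Ndufs1, a core subunit for electron transfer (2661 bases), was below bulk RNA. It had 104 and 105 TPM in bulk RNA against medians of 39.7, 60.7 and 58.1 TPM in single cells, 10-cell and 100-cell pools, differences of -1.37, -0.77 and -0.83. Atp5sl (2387 bases) at -2.43 and Cox7a1, at a low level, at -2.13 were the lowest of the 77 shared members in single cells, and neither was as low in the pools. Of the members in the input table alone, Cox6b2 was lower still in single cells, at -3.54.

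Ndufb8 and Uqcr11 were among the highest members in the low inputs. Ndufb8 (680 bases) had 319 and 343 TPM in bulk RNA. It had 873, 912, 939, 1789, 1530 and 1374 TPM in 100-cell pools 1 to 6. It ran from 772 to 1267 TPM with a median of 914 TPM in 10-cell pools, and from 336 to 1488 TPM with a median of 766 TPM in single cells. All pools lay above bulk RNA, and only single cell 10 overlapped it. The differences were 1.21, 1.46 and 1.78. Uqcr11, a small complex III subunit (chr10 from 80402997 to 80406830, minus strand, 445 bases), had 329 and 310 TPM in bulk RNA. Its medians were 745 TPM in single cells (468 to 1208 TPM), 793 TPM in 10-cell pools (505 to 1131 TPM) and 1050 TPM in 100-cell pools (762 to 1423 TPM). No sorted-cell library overlapped bulk RNA, and the differences were 1.22, 1.31 and 1.70. Ndufa12, an accessory complex I subunit, differed by 1.22, 1.38 and 1.65, and Ndufa5, another, by 1.37 in single cells.

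**Figure D4:**
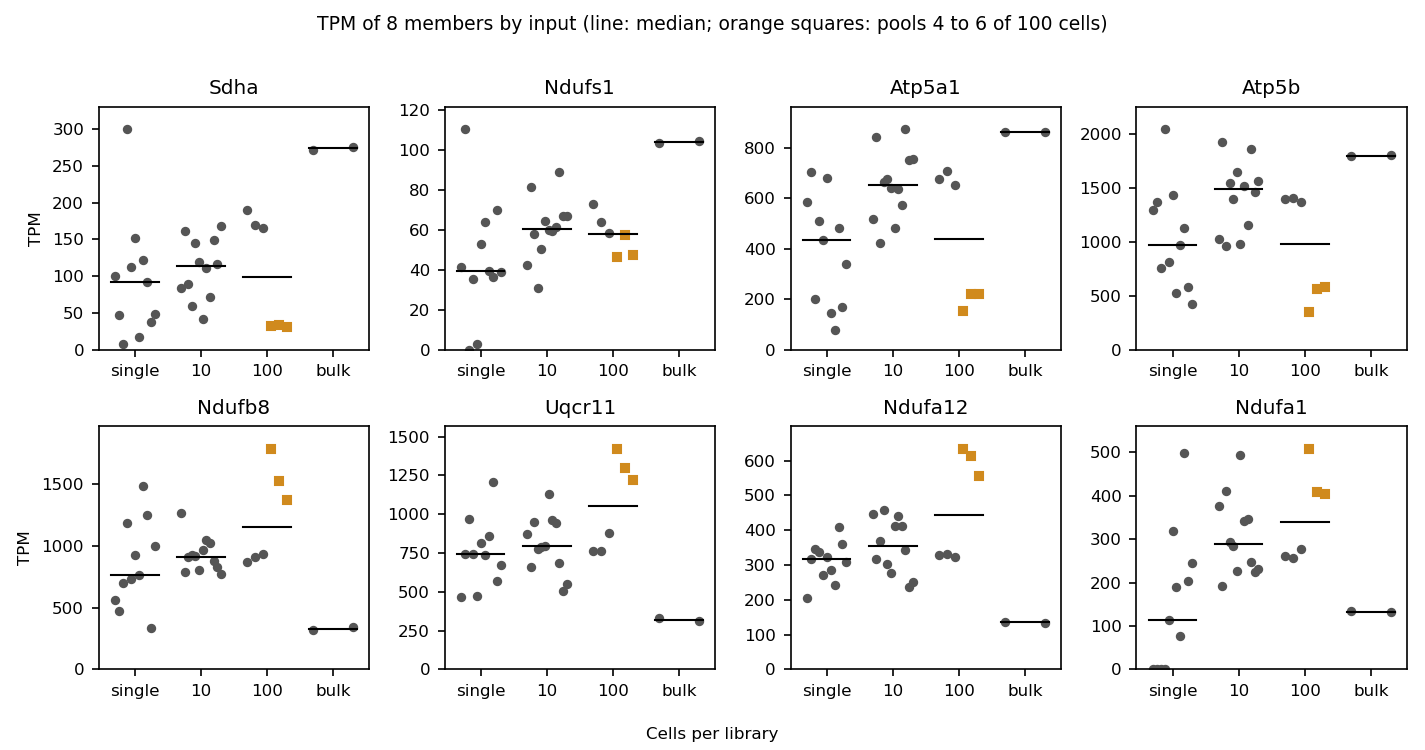
TPM of 8 members (y axes, each starting at 0) in 11 single cells, 12 pools of 10 cells, 6 pools of 100 cells and 2 bulk RNA libraries, 1 point per library with a line at the median. Sdha, Ndufs1, Atp5a1 and Atp5b (top) lie mostly at or below bulk RNA and Ndufb8, Uqcr11 and Ndufa12 mostly above. Pools 4 to 6 of 100 cells (orange squares) lie farther from bulk RNA than pools 1 to 3 in each panel. Ndufa1 is at 0 in 4 single cells.

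Differences from bulk RNA went with transcript length, in the members and in other abundant genes. The rank correlation of the difference with length was -0.36, -0.34 and -0.30 over the 77 members in single cells, 10-cell and 100-cell pools. It was -0.44, -0.41 and -0.36 over the 64 members of at least 100 TPM, and -0.74, -0.76 and -0.74 over all 2175 genes of that level. With the median length of coding transcripts it was -0.39, -0.37 and -0.38 over the 77 members and -0.58, -0.59 and -0.57 over the abundant genes, and with all exons of a gene together -0.29, -0.30 and -0.26 and -0.56, -0.59 and -0.57. The points share libraries and preparation, and the difference between members and other genes was not tested. Of the members of at least 100 TPM, the 26 under 700 bases differed from bulk RNA by medians of 0.88, 1.02 and 1.17, beside 0.67, 0.84 and 0.99 for all 119 such genes. The 25 of at least 1000 bases differed by 0.45, 0.69 and 0.80, beside -1.08, -0.48 and -0.71 for all 1867 such genes. The members with the longest principal transcripts went both ways. Above bulk RNA were Atp5g1 (4715 bases) by 0.93, 1.11 and 1.32, Ndufab1, the mitochondrial acyl carrier protein (3479 bases), by 0.73, 1.20 and 1.57, and Sdhc (3171 bases) by 0.78, 1.03 and 1.22. Below it were the next longest, Sdha (2900 bases), Ndufs1 (2661 bases), Atp5a1 (2471 bases) and Atp5sl (2387 bases), with the values given above. The lengths on both sides depend on the transcript chosen. The median coding transcript has 2676 bases for Atp5g1, 984 for Ndufab1 and 815 for Sdhc, and 1811 for Sdha, 651 for Ndufs1, 2573 for Atp5a1 and 1926 for Atp5sl. The part of length in the members' differences was not tested.

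**Figure D5:**
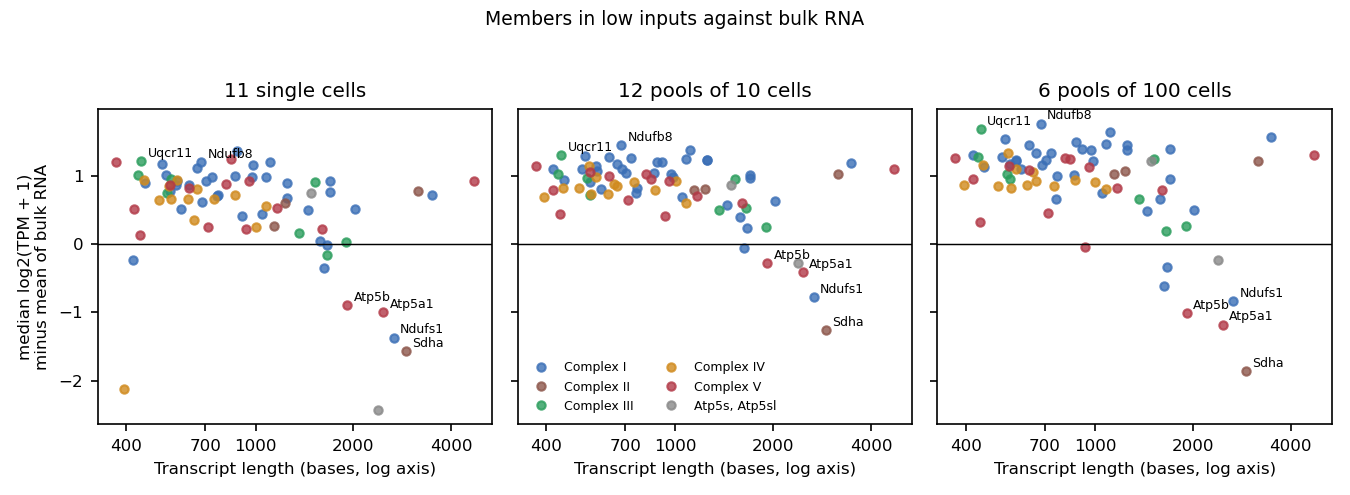
Difference of each member's median from the mean of bulk RNA (y axis, log2(TPM + 1)) against transcript length in bases (x axis, log scale) in single cells, 10-cell pools and 100-cell pools, 1 point per gene colored by complex. Most points lie near 1, with Atp5b, Atp5a1, Ndufs1 and Sdha below 0 in all 3 panels.

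Members varied less between single cells than other abundant genes did. Over the 64 members with 100 TPM or more in each bulk RNA library, the median SD of log2(TPM + 1) was 0.68 in single cells, 0.30 in 10-cell pools and 0.46 in 100-cell pools, against 1.72, 0.38 and 0.53 over all such genes. Uqcrb, a complex III subunit, had the lowest SD of all these genes in single cells, 0.23, with values from 500 to 863 TPM. In 10-cell pools Ndufa8 (0.12), Ndufs8 (0.15) and Uqcrfs1 (0.16) varied least, and Sdha (0.62) and Uqcrh (0.41) were among those that varied most. Of the complexes, complex II had the highest median SD in single cells (1.22, against 0.63 to 0.72 in the others) and the lowest in 10-cell pools (0.20, against 0.29 to 0.35) and 100-cell pools (0.42, against 0.43 to 0.49). As a description, the log2 sums of complexes I and IV correlated at r = 0.88 over the 11 single cells and 0.99 over the 12 10-cell pools, and those of complexes II and V at 0.83 over the single cells and 0.35 over the pools, in libraries that share a total. Complex II correlated with complexes I, III and IV at 0.61, 0.55 and 0.59 over the single cells. Over the 10-cell pools these values were 0.62, 0.59 and 0.59.

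Values of 0 were few. In single cells, 24 of 847 member values were listed at 0 (2.83%), against 37.9% of the values of all genes, and 12 of the 24 were in the 3 X-linked members and 12 in autosomal ones. No value of the 62 autosomal members of at least 100 TPM was listed at 0 in 682, against 6.17% over all autosomal genes of that level. The 3 X-linked members are Cox7b, a complex IV subunit (X from 106015700 to 106022450, plus strand), and Ndufa1 and Ndufb11, accessory complex I subunits (X from 37187588 to 37191163 and from 20615326 to 20617619, both minus strand). All 3 were listed at 0 in single cells 1 to 4, which is 12 of their 33 values. In single cells 5 to 11, Ndufa1 had 113, 318, 191, 78.0, 497, 204 and 246 TPM, Cox7b 145, 236, 171, 248, 381, 341 and 295 TPM, and Ndufb11 148, 190, 119, 75.1, 279, 148 and 239 TPM. The bulk RNA levels were 133, 143 and 88.6 TPM, and the values of single cells 5 to 11 lay on both sides of them for Ndufa1 and Ndufb11 and above them for Cox7b. In single cells 1 to 4, all 49 of 49 X-linked genes of at least 100 TPM in bulk RNA were listed at 0, while 0.707% to 8.01% of autosomal genes of that level were. In the other cells at most 16.3% of these X-linked genes were. A 0 across a whole chromosome may be a failed or omitted estimate, so these values are read only as listed at 0. Without single cells 1 to 4 the median difference of the members from bulk RNA was again 0.73. The remaining zeros in single cells were 6 of Cox7a1, 3 of Atp5sl, 2 of Atp5s and 1 of Cox7a2l, all but the last at low levels in bulk RNA. In 10-cell pools 1 of 924 member values was listed at 0, a Cox7a1 value, and in 100-cell pools and bulk RNA none was.

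Other genes of the pathway were followed from lists. In the processing conditions limma called 0 genes of each list at 0.05 in the F test. Genes with an unadjusted p below 0.05 in that test numbered 2 of 45 assembly factors, the lowest p being that of Lrpprc, which stabilizes mitochondrial mRNAs (adjusted p = 0.454), 1 of 77 mitochondrial ribosomal proteins, 1 of 13 transcriptional regulators, and none of 17 TCA cycle enzymes or of 9 subunits and carriers outside the symbol rule, where 7.56% of all genes had such a p. In Pre-FACS 1 the mitochondrial ribosomal proteins also stood above the median of the libraries, by 0.16 with 64 of 77 above, and the assembly factors by 0.08. In the input series the mitochondrial ribosomal proteins, which translate the subunits encoded by mitochondrial DNA, were above bulk RNA by medians of 0.53, 0.79 and 0.91 in single cells, 10-cell and 100-cell pools, with 15, 20 and 31 of 77 at least 1 above on the log2 scale (1.18%, 2.86% and 5.03% of all genes). Assembly factors differed by -0.07, 0.55 and 0.58. TCA cycle enzymes differed by -0.98, -0.10 and -0.33, with 8, 4 and 6 of 17 at least 1 below, where 68.5%, 44.2% and 41.7% of all genes and 45.7%, 30.2% and 37.2% of the genes of at least 100 TPM were. The transcriptional regulators differed by -1.83, -0.76 and -1.08, beside medians of -1.86, -0.82 and -0.73 over all genes. The subunits and carriers outside the rule differed by 0.46, 0.80 and 0.84.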

How the data were processed

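The deposited values are TPM per gene, made by the authors from SMART-Seq v4 libraries, 12 of processing conditions and 31 of the input series, in 2 tables that were kept apart. The authors aligned reads to mm10 with spike-in sequences added (STAR), counted them per gene (featureCounts), applied an upper-quartile scaling (EDASeq) and divided by effective gene length to reach TPM, so a length term enters every value. Depth per library is not given by TPM. Values were put on the log2(TPM + 1) scale. The processing table was filtered at 1 TPM in at least 3 libraries and fitted with limma 3.58.1 (R 4.3.3, mean-variance trend, 4 groups, no covariates), tested on simulated data, with two-sided contrasts. Input libraries were described by medians against the mean of bulk RNA. Of the gene symbols, 13747 of the processing and 13720 of the input table matched GENCODE vM21, which gave coordinates and the length of the APPRIS principal transcript.

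Named genes were the 10 lowest p-values of the F test and the 3 of each pair, the highest and lowest level in each complex, isoform genes, the 3 largest input differences in each direction, the 5 genes with most zeros, X-linked members, and the 3 largest and smallest SDs in 10-cell pools. Cox7c, Atp5s, Atp5d, Atp5o in the pools, Atp5a1 in the processing conditions, Sdhb to Sdhd and Ndufab1 in the input series, and Uqcrb were named after their values were seen. Members, lists and tests were chosen with earlier results of these data known. The values of 1 member named by this rule, and an allele of the line, are not reported here.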

Additional observations from a re-analysis of the deposited data

How the results depend on the processing

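The count of members passing the test was 0 for the F test and every pair under another pseudocount (0.1), filter, trend, scaling, threshold of 0.1, pairwise fit and without each library in turn. At 0.1 with Pre-FACS 1 and FACS-only 1 left out, a setting added after the values were seen, Cox6b1 passed in the F test (adjusted p = 0.0984) and in Pre-enriched against Pre-FACS (0.0640). Those libraries held the highest Cox6b1 levels, so this is a description. The labels do not say what a replicate number marks, and not every same-numbered pair correlated above 0.1, so the numbers were not taken as pairs. Same-numbered libraries correlated at -0.04 to 0.23 (median 0.07, 18 pairs) and others at -0.16 to 0.08 (median -0.03), and 9 of 12 libraries correlated best with one of their own number. The paper describes FACS-only and Pre-enriched cells as 1 sample, Pre-FACS as an aliquot banked before sorting and Mock as an identical sample. It does not say whether a number marks such a shared sample, so a pairing is possible and the unpaired fit may ignore it. With the replicate number as a block, 0 members passed, 6 against 4 had an unadjusted p below 0.05 in the F test, and all genes passing numbered 61 against 13. Without each library in turn, the median change ranged from -0.18 to 0.02 for Mock against Pre-FACS, -0.15 to 0.06 for FACS-only against Pre-FACS, -0.10 to 0.07 for Pre-enriched against Pre-FACS, -0.05 to 0.10 for FACS-only against Mock and -0.03 to 0.11 for Pre-enriched against FACS-only. The 100-cell median difference ranged from 0.79 to 1.39. Rescaling single-cell TPM to the fixed total moved the sum from 28256 to 41635 TPM and the median difference from 0.73 to 1.12, since the table held as little as 54.2% of it. The other 321 values computed under alternatives, which are the counts of members passing the test and the members' medians, sums and shares of zeros, moved by less than the spread between libraries (for shares of zeros, within an exact binomial interval) or stayed at the same count. Of the values for single complexes and single genes, 1356 did likewise and 9 moved by more, all of them medians of a complex or of its core subunits. Counts at an unadjusted p are not among them and moved more, as with the 2 libraries left out (24 against 4 members in the F test). The spread used as a yardstick is itself wide. It includes Pre-FACS 1 and FACS-only 1 (SD 0.138 for the members' processing medians) and both trios of 100-cell pools. A change of sign in a processing median thus counted as no move, as did 100-cell medians of 0.70 and 1.51 without 1 trio. The binomial interval takes values of the same cell as independent, which they are not. These counts therefore say little about stability. Rescaling without mitochondrially encoded genes was not run, since those genes were not analysed here. TPM without counts gives no counting error.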
